A study of Mus musculus with 40 samples.

Results

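The kidney transcriptome 24 h after sham surgery was compared with that of kidneys from mice that had no surgery. The members are the 8 libraries that the sample titles place in this control experiment, out of 40 libraries in the series: 4 from mice operated on 24 h earlier without ischaemia, and 4 from unoperated controls. All were total RNA of kidney from wild-type C57BL/6 mice, read as bulk RNA-seq counts per gene. The wider study concerns ischaemia-reperfusion injury (IRI), in which renal blood flow is blocked and then restored, and mesenchymal stromal cells given as treatment; neither was part of the sham libraries by their titles and source names. The treatment field of the sham libraries does read IRI, so the labels conflict, and the title and source name were followed here. Anaesthetic, analgesia, incision, sex, age and hour of collection are not given in the sources used here. Nothing in the labels says that replicates came from separate animals, so p-values measure only the spread between these libraries, which may be technical.

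A sham operation takes the animal through anaesthesia, handling and opening of the body wall while leaving the renal vessels open, and it serves to set apart the effects of surgery from those of ischaemia. The cortex of the mouse kidney is mostly proximal tubule, whose cells reabsorb glucose, amino acids, phosphate and bicarbonate, secrete organic anions and burn fatty acids for fuel. Many proximal tubule genes of the mouse differ between the sexes because testosterone acts on the tubule directly: Kap, Cyp4b1, Odc1 and Slco1a1 are known as androgen-induced, while Slc7a12 and Prlr are known to be more abundant in females. The kidney also holds a circadian clock, in which CLOCK and BMAL1 bind E-box sequences in the promoters of the Per and Cry genes, whose products then shut CLOCK and BMAL1 down. Output genes such as Dbp and Hlf, which encode PAR-bZIP transcription factors, carry the rhythm on to transporters and metabolic enzymes.

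Sequencing depth was similar in both groups, from 27792987 to 37097091 counts in the no-surgery libraries and from 26601247 to 34009719 in the sham libraries. No 2 libraries were alike within sampling noise. The first principal component of log2 counts-per-million (CPM) held 28.5% of the variance and separated the groups completely. Mitochondrially encoded transcripts made up 33.3% ± 2.79 (SD, n = 4) of the no-surgery counts and 48.6% ± 3.46 (SD, n = 4) of the sham counts, and the ranges were separate. All CPM values below are therefore scaled by the trimmed mean of M values (TMM), which sets library size from the bulk of the genes. Defining kidney transcripts were abundant throughout, with the proximal tubule gene Slc34a1 at 2193 CPM or more in every library. Y-linked transcripts were present in all 8 libraries: Eif2s3y lay between 36.1 and 47.6 CPM without surgery and between 64.5 and 84.8 CPM after it. In bulk tissue, fewer cells of a type and less RNA per cell cannot be told apart.

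Sham surgery was followed by a broad and mostly downward change. Of 17781 genes tested, 3703 (20.8%) passed an adjusted p of 0.05 in the quasi-likelihood F test of edgeR, with p-values adjusted by the Benjamini-Hochberg method, 1369 (7.70%) higher and 2334 (13.1%) lower. The word called is used for these genes below. At least 2-fold changes were fewer, 323 higher and 512 lower, and the median log2 fold change was 0.65 among genes called higher and -0.67 among those called lower, against 0.04 over all genes tested. The ranges of the 4 sham and 4 no-surgery libraries did not overlap for 4264 genes (24.0%), among them 3293 of those called. The balance of directions depended on scaling: 37.0% of the called genes were higher with TMM, and 23.4% (793 higher and 2598 lower) when library totals were used without it. Without no-surgery library 2, 855 genes were called higher.

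Gene lists differed in the direction of their calls. Nuclear genes of oxidative phosphorylation, cytosolic ribosome and proteasome subunits, early proximal tubule markers, fatty acid oxidation and cytochrome P450 genes lay mostly below their no-surgery level. Thin limb markers, erythroid transcripts, immediate early genes and mitochondrially encoded mRNA lay mostly above it. Markers of the distal convoluted tubule gave no call, 0 of 10 in either direction, with a median log2 fold change of 0.02. Abundant genes were called lower more often: 40.9% of the most abundant of 5 equal classes (2846 genes of known length). That class held 18 of 18 early proximal tubule markers, 19 of 26 organic ion transporters and 22 of 26 fatty acid oxidation genes. It also held 14 of 26 P450, 17 of 23 conjugation and 18 of 28 glycolysis and gluconeogenesis genes. The part of abundance in the fall of these lists was not tested.

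**Figure D1:**
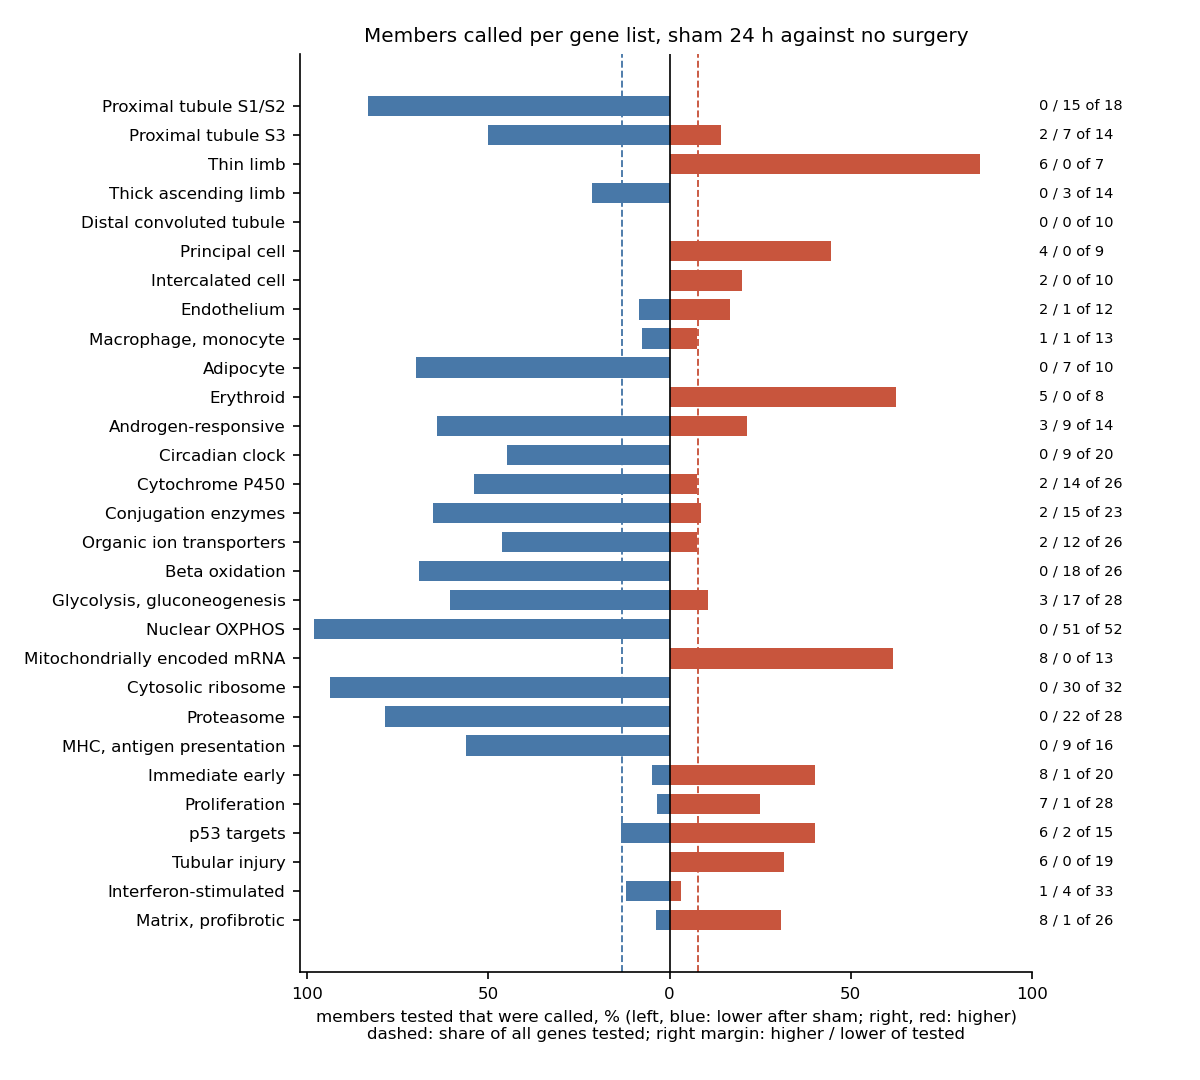
Share of the tested members of each gene list that were called, in percent, with genes called lower to the left and genes called higher to the right of 0, dashed lines at the shares of all genes tested (13.1% and 7.70%) and the counts in the margin. Early proximal tubule, oxidative phosphorylation, ribosome and proteasome bars reach far left, while thin limb (6 of 7), erythroid (5 of 8) and mitochondrially encoded genes (8 of 13) reach far right.

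Among the 12 largest falls of genes at a sufficient level, 6 were in cytochrome P450 enzymes, which oxidise steroids, fatty acids and foreign compounds. These 12 had a mean log2 CPM of at least 3 and groups that did not overlap. Cyp2a4, a steroid hydroxylase, stood at 232, 251, 206 and 178 CPM in the no-surgery libraries and at 3.16, 1.23, 14.2 and 8.55 CPM in the sham libraries. Every sham library was far below every no-surgery library, and the sham libraries differed widely among themselves; the log2 fold change was -4.99 ± 0.47 (SE, adjusted p = 2.5e-06). Cyp2e1, which oxidises ethanol and small solvents, fell from 836, 1180, 890 and 1091 CPM to 107, 104, 169 and 211 CPM. That is a log2 fold change of -2.76 ± 0.20 (adjusted p = 3.7e-07) with the groups well apart. Cyp4b1, a fatty acid and xenobiotic hydroxylase, went from 984, 1666, 974 and 1438 CPM to 206, 141, 170 and 229 CPM (log2 fold change -2.76 ± 0.19). Cyp4a12a, the enzyme that makes 20-HETE in male mouse kidney, fell by 3.74 on the log2 scale, Cyp2a5 by 2.99 and Cyp2d12 by 2.65. Cyp2a4 and Cyp2a5 are near-identical copies, so the counting could have divided their reads between them.

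Among the other 6 of these genes, the one that fell most was Azgp1, which encodes zinc-alpha-2-glycoprotein, a secreted lipid-mobilising protein. It stood at 43.7, 49.0, 43.6 and 40.2 CPM without surgery and at 2.28, 1.39, 3.06 and 2.67 CPM after it (log2 fold change -4.23 ± 0.20, adjusted p = 6.5e-09). Within each group its libraries were close together. Pzp, a broad protease inhibitor, fell by 3.62 and had no count in sham library 2. Nat8f5, of the N-acetyltransferase 8 family, fell by 3.55, the carboxylesterase Ces1g by 2.74, the organic anion carrier Slco1a1 by 2.65 and the H-ferritin receptor Timd2 by 2.64.

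The largest rises began from low levels. They were chosen on the same terms as the falls, so separate groups were required of them. Erdr1 stood at 0.128, 1.38, 0.327 and 0.803 CPM without surgery and at 5.79, 9.63, 17.2 and 39.3 CPM after it, a log2 fold change of 4.80 ± 0.62 with a wide spread inside each group; its locus is repeated, so its count is uncertain. Cyp4a14, a fatty acid omega-hydroxylase and PPARA target that is more abundant in female kidney, rose from 5.45, 4.35, 7.82 and 5.88 CPM to 32.3, 40.5, 48.7 and 37.2 CPM. Its lowest sham library was above the highest control (log2 fold change 2.75 ± 0.18, adjusted p = 1.7e-07). Prss35, a secreted protein of the serine protease family, rose from 6.44, 7.35, 4.41 and 11.8 CPM to 49.6, 49.3, 41.5 and 39.1 CPM. Its sham libraries were tight and its controls less so.

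Other large rises were in Loxl4, a collagen cross-linking oxidase (log2 fold change 2.85), Calml3, a calmodulin-like protein (2.44), Akr1b8, an aldo-keto reductase (1.92), and Gcnt3, an enzyme that branches mucin-type glycans (1.85). Adgrf1, an adhesion G-protein-coupled receptor, rose by 1.84, Slc6a12, which imports the osmolyte betaine, by 1.79, and the insulin receptor substrate Irs3 by 1.76. All of these had an SE of 0.28 or less.

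**Figure D2:**
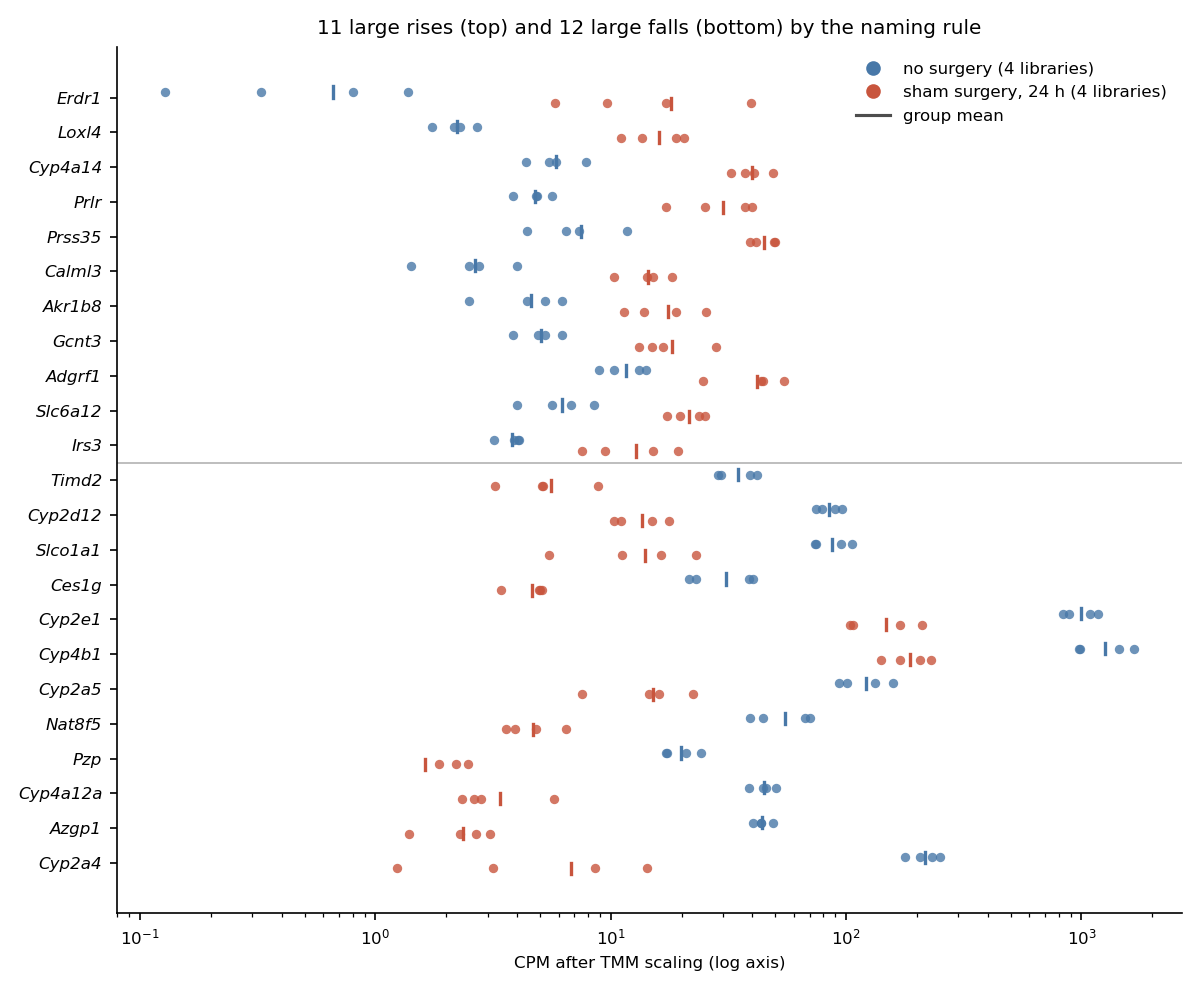
CPM after TMM scaling, on a log axis, of 11 of the genes that rose most and the 12 that fell most, with one point per library (4 no-surgery, 4 sham) and a bar at each group mean. Separate groups were required by the naming rule; Pzp had no count in sham library 2, a value that a log axis cannot show.

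Genes known to respond to androgen changed, mostly downward. Of 14 such genes tested, 9 fell and 3 rose (median log2 fold change -0.85). Kap, the kidney androgen-regulated protein of the proximal tubule, was at 30387, 28698, 29917 and 23225 CPM without surgery and at 11843, 10935, 14592 and 14740 CPM after it. Its highest sham library stood well below its lowest control, and the log2 fold change was -1.11 ± 0.13 (adjusted p = 1.7e-05). Odc1, the first enzyme of polyamine synthesis, fell from 247, 371, 241 and 342 CPM to 107, 112, 112 and 128 CPM (log2 fold change -1.39 ± 0.14). Cyp7b1, an oxysterol hydroxylase, and Cyp2j13, an arachidonic acid epoxygenase, fell by 2.64 and 2.61, and Slco1a1 and Cyp4b1 are in the same list. The smallest falls in the list were those of Hsd11b1, which regenerates active glucocorticoid (0.60, with overlapping groups), and of the lysosomal enzyme Gusb (0.51). The Gusb call was lost with DESeq2 size factors and when any library other than sham 1 was left out.

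The 3 rising members included both transcripts named above as more abundant in females. Slc7a12, an amino acid transporter of the straight proximal tubule, was near absent in controls at 0.705, 0.688, 0.109 and 0.0321 CPM and reached 10.1, 14.1, 15.8 and 8.12 CPM after sham surgery. With 46 counts in all controls and 1453 in all sham libraries, the log2 fold change was 5.0 ± 0.54 (adjusted p = 8.9e-06). Prlr, the prolactin receptor, went from 4.84, 3.84, 4.82 and 5.65 CPM to 25.1, 37.3, 39.9 and 17.2 CPM (log2 fold change 2.64 ± 0.24). Both transcripts were higher in every sham library than in any control, which the naming rule required of Prlr among the largest rises. Slc22a19, an organic anion transporter, rose by 0.96. The medium-chain acyl-CoA synthetase Acsm3 was not called (0.03 ± 0.11). The labels do not give the sex of these mice, and these files hold no hormone levels.

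Several clock output genes fell. Among 20 clock genes tested, 0 rose and 9 fell, with a median log2 fold change of -0.39. With DESeq2 and with DESeq2 size factors 2 were called higher, and 1 was without no-surgery library 1 or sham library 2, 3 or 4. Hlf was at 63.0, 74.5, 51.8 and 65.4 CPM without surgery and at 16.3, 22.9, 21.1 and 24.3 CPM after it (log2 fold change -1.59 ± 0.14, adjusted p = 1.6e-06). Its groups were far apart and each was compact. Dbp stood at 72.2, 147, 75.6 and 152 CPM in controls and at 50.9, 62.4, 61.6 and 51.9 CPM in sham libraries (log2 fold change -0.98 ± 0.21). All sham values lay below all controls, but the controls formed a low pair (libraries 1 and 3) and a high pair (libraries 2 and 4). Usp2, a deubiquitinase under clock control, moved least but most evenly, from 97.8, 99.4, 95.5 and 98.9 CPM to 68.6, 71.7, 67.6 and 74.2 CPM (log2 fold change -0.47 ± 0.09).

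Several clock repressors also fell. Bhlhe41 and Bhlhe40, which compete for E-boxes, fell by 1.54 and 0.65, Per2 by 0.70, Per1 by 0.61 and Ciart, a repressor of CLOCK-BMAL1, by 0.61. Per1 and Ciart had overlapping groups, and the Ciart call was lost when any of 5 libraries was left out (no-surgery 2 or 4, sham 1, 3 or 4). Bmal1, listed as Arntl, was at 3.84, 2.79, 1.66 and 1.51 CPM in controls and 4.49, 5.65, 3.42 and 6.56 CPM in sham libraries; with a log2 fold change of 1.04 ± 0.36 it missed the threshold (adjusted p = 0.052). Clock gave 0.38 ± 0.14 (adjusted p = 0.057). Both were called higher with DESeq2 and with DESeq2 size factors, Arntl also without no-surgery library 1 or sham library 3, and Clock without sham library 2 or 4. An edgeR fit that also holds the IRI libraries and their controls gave further p-values for sham surgery. There Arntl (adjusted p = 0.019) and Clock (0.018) passed, as did Npas2 (log2 fold change 0.98, adjusted p = 0.038) and Rora (-0.38, 0.042). Ciart did not pass there (adjusted p = 0.060). In the main fit Cry1, Cry2, Per3, Nr1d1, Nr1d2, Tef, Npas2, Nfil3 and Rora were not called. For Nr1d1, which encodes REV-ERBalpha, the approximate 95% interval (normal approximation from the SE, as below) was -0.39 to 0.17, and for the PAR-bZIP gene Tef it was -0.26 to 0.12.

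The proximal promoters of the clock genes that fell were read for the letters CACGTG, the canonical E-box, because this is the sequence that CLOCK and BMAL1 are known to bind. Windows of 250 bases before each gene's start came from RefSeq (GRCm38.p6, an earlier build than that of the counts) and were matched by symbol, and both strands were searched (the motif is its own reverse complement). The E-box was present for 3 of the 6 clock genes called lower that had a window, for 2 of the 11 not called (Cry1 and Tef), and for 6.86% of all 27025 symbols. Among genes tested here it was present for 9.47%, for 11.8% of those called lower and for 8.49% of those called higher. The 3 windows with a match in a gene that fell are shown 5′ to 3′ on the gene's strand, with the E-box in capitals: Per1 at chr11:69098699-69098948 (plus strand), Ciart at chr3:95882229-95882478 (minus strand) and Bhlhe41 at chr6:145865421-145865670 (minus strand).
Per1: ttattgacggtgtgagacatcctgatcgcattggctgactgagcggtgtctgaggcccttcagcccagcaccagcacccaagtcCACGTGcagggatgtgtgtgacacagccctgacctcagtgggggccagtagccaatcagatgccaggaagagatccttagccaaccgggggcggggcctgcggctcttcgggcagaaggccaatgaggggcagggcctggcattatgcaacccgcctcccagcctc
Ciart: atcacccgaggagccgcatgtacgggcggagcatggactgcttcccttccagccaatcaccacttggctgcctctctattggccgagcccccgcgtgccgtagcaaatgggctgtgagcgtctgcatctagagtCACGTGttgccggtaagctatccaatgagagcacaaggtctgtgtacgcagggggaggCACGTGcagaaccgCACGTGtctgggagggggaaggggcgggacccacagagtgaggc
Bhlhe41: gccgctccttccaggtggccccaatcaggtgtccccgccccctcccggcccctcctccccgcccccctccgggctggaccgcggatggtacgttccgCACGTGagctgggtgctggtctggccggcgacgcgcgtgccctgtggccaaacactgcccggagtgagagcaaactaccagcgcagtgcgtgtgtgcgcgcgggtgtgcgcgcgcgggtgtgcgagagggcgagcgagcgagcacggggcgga
Ciart held 3 matches, beginning 116, 58 and 44 bases before the start, and the others 1 each (Per1 at 166 bases, Bhlhe41 at 153 bases). Per1 had 2 windows in the table, 1 of which held the motif. The D-box TTATGTAA was found for Per3 alone, and the cAMP response element TGACGTCA for Hlf alone, among the 17 clock genes with a window, against 0.977% and 1.77% of all symbols. Of 7 further motifs searched on both strands over all genes, the antioxidant element TGACNNNGC was in 13.9% of windows of genes tested, 13.9% of genes called lower and 13.5% of genes called higher, and each of the others was found for 3.46% of all symbols or fewer. A match is a description of letters and not a shown binding site, and Hlf, which changed most among the clock genes, had no E-box in its window.

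**Figure D3:**
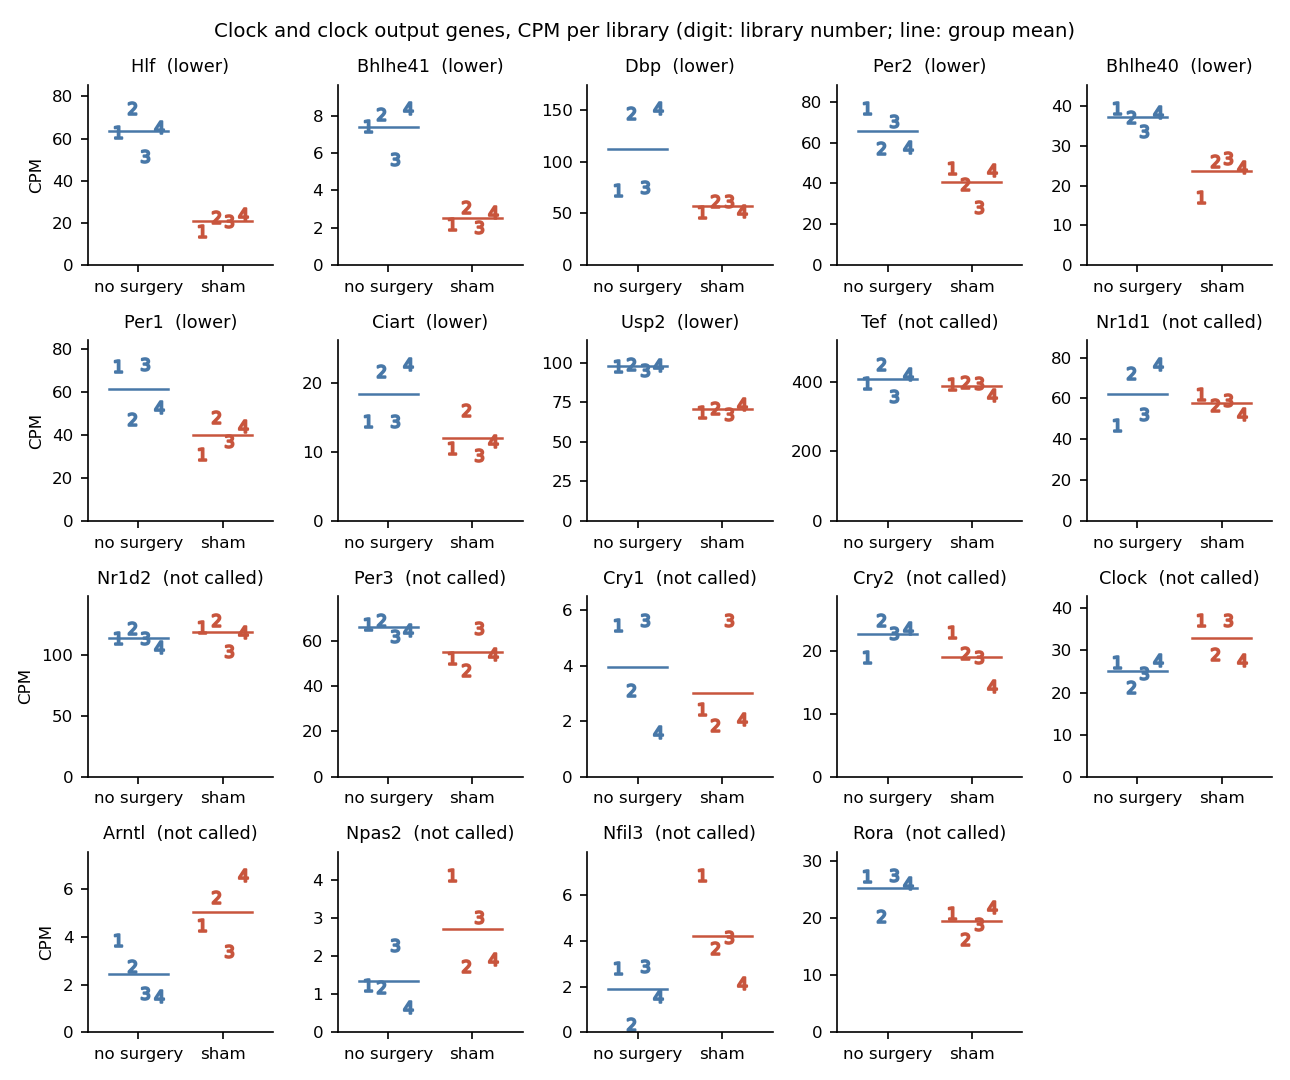
CPM after TMM scaling of 19 of the 20 clock genes tested, 1 panel per gene with its own axis from 0, where each digit is a library number and each line a group mean. The Hlf and Usp2 groups are separate and compact, whereas the no-surgery libraries of Dbp split into 72.2 and 75.6 against 147 and 152.

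The split among the no-surgery libraries touched the glucocorticoid genes as well. Of 9766 genes with a mean of at least 3 on the log2 CPM scale, 15 differed by 2-fold or more between libraries 1 and 3 on one side and 2 and 4 on the other, against 7 and 1 for the other pairings. The sham libraries paired in the same ways gave 1, 10 and 1 of 9765 genes. Dbp, whose pairs are given above, did not reach the 2-fold cut. Fkbp5, a feedback regulator of the glucocorticoid receptor, stood at 90.0, 26.7, 90.4 and 25.3 CPM in controls and at 27.0, 34.4, 25.5 and 12.9 CPM in sham libraries. The sham values thus overlapped the low pair of controls; the call (log2 fold change -1.22 ± 0.37, adjusted p = 0.028) was lost with DESeq2 and when any of 5 libraries was left out (no-surgery 1 or 3, sham 1, 3 or 4). Klf15, a glucocorticoid and clock target, had no such split, at 65.6, 61.4, 61.9 and 59.1 CPM against 35.6, 36.3, 41.6 and 37.6 CPM (log2 fold change -0.71 ± 0.10). Within this list of 16 tested genes, 7 fell and 2 rose (median -0.42). The members that rose were Sgk1 (0.86) and Sesn1. The part of the pairing in the clock and glucocorticoid results was not tested.

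Along the nephron, early proximal tubule markers were mostly called lower and thin limb markers mostly higher. Of 18 markers of the convoluted proximal tubule (S1 and S2), 15 fell and 0 rose, with a median log2 fold change of -0.87. Slc34a1, the phosphate transporter NaPi-IIa, went from 3939, 5605, 3809 and 5448 CPM to 2476, 2193, 2375 and 2759 CPM (log2 fold change -0.94 ± 0.14). The highest sham library was well below the lowest control. Slc4a4, the basolateral bicarbonate exit route, fell by 1.28, and Miox, which degrades inositol, by 1.48. The neutral amino acid transporter Slc6a19 was not called at -0.10 (approximate 95% interval -0.36 to 0.17). For the straight part (S3) 7 of 14 markers fell and 2 rose, the latter being Slc7a12 and Slc22a19.

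In the thin limb list 6 of 7 tested markers rose and 0 fell (median 0.81). Akr1b3, aldose reductase, which makes the osmolyte sorbitol, went from 424, 335, 476 and 397 CPM to 1056, 1098, 987 and 810 CPM (log2 fold change 1.27 ± 0.12, adjusted p = 3.4e-06). The groups were separated by a wide gap. Sptssb, a subunit of serine palmitoyltransferase, rose by 1.42 and the tight junction protein Cldn4 by 0.81. Aqp4, the basolateral water channel of the collecting duct, rose from 102, 57.5, 109 and 67.6 CPM to 197, 230, 231 and 141 CPM (log2 fold change 1.25 ± 0.19). Aqp2, the vasopressin-regulated apical channel, rose by 0.70 with overlapping groups. Principal cell markers gave 4 rises and 0 falls among 9, and intercalated cell markers 2 rises and 0 falls among 10. Of all genes tested, 7.70% were called higher. The intercalated list gave 1 rise with library totals and without no-surgery library 1, 3 or 4 or sham library 3 or 4, and 1 fall with no filter and without sham library 3.

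The thick ascending limb list gave 3 falls and 0 rises among 14, against 13.1% of all genes tested called lower. Umod, which encodes the urinary protein uromodulin, fell from 135, 178, 129 and 152 CPM to 80.0, 75.7, 70.0 and 65.7 CPM (log2 fold change -1.03 ± 0.12). Its groups did not overlap. The cotransporter of the same segment, Slc12a1, was not called at 0.27 (approximate 95% interval -0.01 to 0.55). Slc12a3, which marks the distal convoluted tubule, was also not called at 0.13 (-0.07 to 0.34).

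Transport and detoxification genes of the proximal tubule lay mostly on the falling side. Of 26 organic ion and drug transporters tested, 12 fell and 2 rose (median -0.59). The most abundant class of genes, which held 19 of them, had 40.9% called lower. Slc22a6 (OAT1), the basolateral uptake carrier for para-aminohippurate and many drugs, was at 461, 715, 490 and 582 CPM without surgery and at 133, 121, 145 and 203 CPM after it (log2 fold change -1.90 ± 0.16, adjusted p = 1.5e-06). Slc22a8 (OAT3) fell by 1.55. Sham values of both carriers were all below the controls. The efflux carrier Slc47a1 (MATE1) was not called at -0.04 (approximate 95% interval -0.23 to 0.15).

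Cytochrome P450 genes gave 14 falls and 2 rises among 26 (median -0.84). The summed CPM of the P450 list was 3641 to 4866 without surgery and 976 to 1435 after it. The 2 rises were Cyp4a14 and Cyp4a10. Conjugation enzymes gave 15 falls and 2 rises among 23 (median -0.76). Ugt1a7c, a glucuronosyltransferase that shares exons with its family and is uncertain for that reason, stood at 6.76, 23.4, 5.50 and 21.7 CPM in controls, again in the pairs 1 and 3 against 2 and 4, and at 1.10, 0.979, 0.883 and 1.11 CPM in sham libraries (log2 fold change -3.81 ± 0.44). All sham values lay below the lower pair. Nat8, which acetylates cysteine conjugates, fell by 2.11.

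Fuel metabolism fell in breadth and rose at a few fasting genes. Fatty acid oxidation genes gave 18 falls and 0 rises among 26 (median -0.60). Acads, the short-chain acyl-CoA dehydrogenase, went from 68.6, 110, 66.9 and 96.3 CPM to 25.5, 24.4, 25.8 and 29.8 CPM (log2 fold change -1.70 ± 0.15). Its sham libraries were nearly equal while the controls again stood in pairs. Medium-chain Acadm was not called at -0.03 (approximate 95% interval -0.24 to 0.18). Among 24 fasting and PPARA genes 8 fell and 5 rose, Cyp4a14, Pdk4, Cyp4a10 and Ucp2 among the latter. Pdk4, which restrains pyruvate oxidation, gave 1.03 ± 0.33 with overlapping groups, and its call was lost without any of 4 libraries (no-surgery 2 or 4, sham 3 or 4).

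Of 28 glycolysis and gluconeogenesis genes, 17 fell and 3 rose (median -0.53), the latter count being 1 with library totals. Fbp1, a gluconeogenic phosphatase, went from 232, 453, 231 and 433 CPM to 54.8, 71.0, 109 and 96.5 CPM (log2 fold change -2.02 ± 0.24). The controls stood in the same pairs, and all sham values were below both. G6pc, which releases free glucose, fell by 1.72, Khk, the first enzyme of fructose use, by 1.31, and Pck1, whose groups overlapped, by 0.81. The Pck1 call was lost with DESeq2 and without no-surgery library 1. Lipogenic genes gave 7 falls and 2 rises among 16, with the desaturase Scd1 down by 1.18 and fatty acid synthase Fasn by 0.70. Of the lipogenic genes 1 rose with library totals, with no filter and without any 1 library other than sham 4. Cholesterol synthesis gave 7 falls and 0 rises among 22: Hmgcs1, which makes the HMG-CoA of the pathway, was not called (-0.01 ± 0.10).

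Nuclear and mitochondrial genes of the respiratory chain moved in opposite directions. Of 52 nuclear genes of oxidative phosphorylation, 51 fell and 0 rose (median -0.73), and the one gene not called was Ndufa5 (-0.36 ± 0.13, adjusted p = 0.059). Atp5b, the catalytic subunit of ATP synthase, was at 921, 1331, 945 and 1285 CPM without surgery and at 468, 448, 593 and 599 CPM after it (log2 fold change -1.09 ± 0.14). Cox5a, of cytochrome c oxidase, fell by 1.39. Of the 13 mitochondrially encoded mRNAs, 8 rose and 0 fell (median 0.60). The transcript mt-Co1, from the same oxidase, went from 104300, 109650, 112200 and 85736 CPM to 177530, 182380, 137760 and 166290 CPM (log2 fold change 0.69 ± 0.13, adjusted p = 0.00086). The groups did not overlap. The complex I subunit mt-Nd1 rose by 0.68, the ribosomal RNA mt-Rnr2 by 0.92, and mt-Co2 was not called (0.44 ± 0.16, adjusted p = 0.074).

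Regulators of mitochondrial content gave 1 call in the main fit. Of 18 biogenesis genes, 1 fell and 0 rose, against 13.1% of all genes tested called lower and 7.70% called higher. The most abundant class of genes held 2 of the 18. With DESeq2, with DESeq2 size factors and without sham library 3, 1 biogenesis gene was called higher. Without sham library 4, 2 fell. The gene that fell was Tfam, the packaging and transcription factor of mitochondrial DNA, at 27.7, 32.5, 23.5 and 27.7 CPM against 22.8, 19.5, 12.6 and 18.9 CPM (log2 fold change -0.59 ± 0.17). Its lowest control lay just above its highest sham value, and the call was lost without no-surgery library 2. Ppargc1a, the coactivator PGC-1alpha, was not called at -0.23 (approximate 95% interval -0.51 to 0.06), nor was its partner Esrra at -0.14 (-0.32 to 0.04). Among 20 genes of mitochondrial dynamics and mitophagy 5 fell and 1 rose (0 with library totals and without no-surgery library 2, 3 or 4 or sham library 4); the mitophagy kinase Pink1 fell by 0.80 and the autophagy receptor Sqstm1 by 0.90.

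Genes of protein production and turnover fell as broadly. Of 32 cytosolic ribosomal protein genes, 30 fell and 0 rose, with a median of -0.52. Rps2 went from 433, 516, 441 and 497 CPM to 269, 259, 310 and 272 CPM (log2 fold change -0.77 ± 0.10); all 4 sham values lay below the controls. Rpl14 was not called at -0.23 ± 0.10. Of 28 proteasome genes 22 fell and 0 rose (median -0.55), with Psmb7 down by 1.03 and Psmc6 not called (-0.24 ± 0.10). Many transcripts of the oxidative phosphorylation and ribosomal lists are short and abundant, and over all genes short abundant transcripts were often called lower. In the class of genes that was both in the shortest and in the most abundant of 5 equal classes (749 genes), the median was -0.47 and 60.9% were called lower, whereas among the longest of equally abundant genes (503 genes) the median was 0.05 and 16.9% were called lower. That class held 38 of the 51 oxidative phosphorylation genes with a length, 29 of 32 ribosomal and 9 of 28 proteasome genes. The part of transcript length and abundance in the fall of these lists was not tested.

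**Figure D4:**
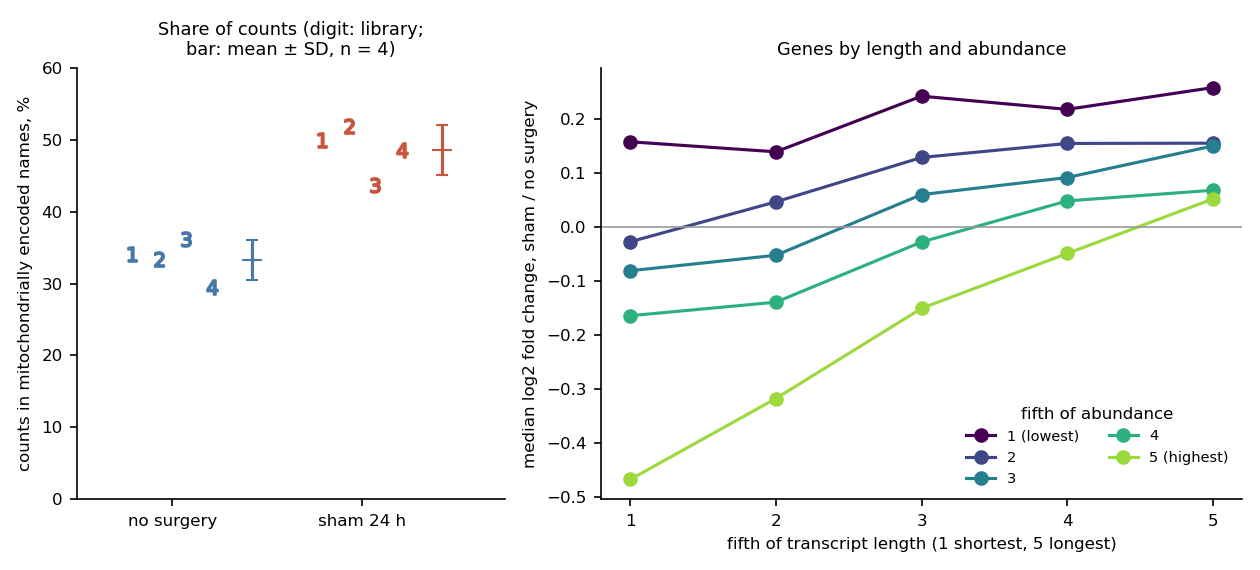
The left panel plots the percentage of counts in mitochondrially encoded names by library (digits) with mean ± SD, and the right panel the median log2 fold change of all genes in 5 classes of transcript length, 1 line per class of abundance. The sham libraries (43.8% to 51.9%) lie above the no-surgery libraries (29.6% to 36.3%), and the most abundant genes run from -0.47 in the shortest class to 0.05 in the longest.

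Serum amyloid transcripts rose, while the injury markers Havcr1 and Lcn2 were not called. Saa1, serum amyloid A, which tissues make in response to cytokines, had 0 counts in the 4 controls and 24 to 33 counts in each sham library, 113 in all. Against a floor of 3 counts over the control group this is at least 38.6-fold higher. Saa2 had 6 counts in controls, all in library 4, and 142 in sham libraries, and its reads could be shared with Saa1; its call was lost without no-surgery library 1, 2 or 3. Of 21 acute-phase and complement genes 3 rose and 0 fell, and without no-surgery library 1, 2 or 3 only 1 was called. Among all genes tested, 7.70% were called higher. The tubular injury marker Havcr1 (KIM-1) had 54 counts in controls and 50 in sham libraries (log2 fold change 0.01, approximate 95% interval -2.27 to 2.29). Lcn2 (NGAL) was at 2.47, 5.18, 4.63 and 5.23 CPM in controls and 9.82, 4.86, 7.48 and 4.06 CPM after surgery, with overlapping groups and no call (0.58, -0.04 to 1.21).

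Of 19 tubular injury and repair genes, 6 rose and 0 fell (median 0.28). Krt18, a keratin of simple epithelia, went from 55.5, 48.3, 61.9 and 47.7 CPM to 80.6, 95.9, 91.1 and 78.0 CPM (log2 fold change 0.70 ± 0.11). All sham libraries exceeded all controls. Sox4, a developmental transcription factor, rose by 0.74. The count fell to 2 without sham library 2, and to 3 without no-surgery library 2 or with library totals. Krt20 was not called at 0.97 ± 0.65.

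Immediate early genes gave 8 rises and 1 fall among 20 (median 0.64). Fos stood at 2.47, 0.906, 2.81 and 1.41 CPM in controls and at 4.80, 6.44, 5.06 and 8.99 CPM in sham libraries (log2 fold change 1.73 ± 0.37). The groups did not overlap. Jun, its partner in AP-1, rose by 1.18, and the nuclear receptor Nr4a1 rose 4.01-fold with overlapping groups, sham library 3 (3.56 CPM) lying among the controls. Proliferation genes gave 7 rises and 1 fall among 28 (median 0.81), and 11 rises with DESeq2. Mki67, which marks cycling cells, went from 5.35, 4.13, 5.83 and 5.78 CPM to 20.03, 14.2, 11.7 and 22.6 CPM (log2 fold change 1.70 ± 0.22, adjusted p = 4.3e-05). Every sham library was above every control.

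The mitotic kinase Cdk1 rose by 2.24 and Top2a, which untangles replicated DNA, by 1.86, while the replication clamp Pcna was not called (-0.25 ± 0.18). Erythroid transcripts rose in the same libraries: 5 of 8 markers were called higher, and their summed CPM was 253 to 387 without surgery and 401 to 1236 after it. Alas2, the erythroid enzyme of haem synthesis, was at 3.27, 5.25, 6.27 and 4.94 CPM against 18.4, 12.2, 11.1 and 19.97 CPM (log2 fold change 1.64 ± 0.24), and Hba-a1 rose by 1.49. Sham library 3, the lowest of the sham group for Mki67, Cdk1 and Top2a, was also the lowest for Alas2 and Hba-a1. The part of erythroid cells in the proliferation result was not tested. The p53 target and cell cycle inhibitor Cdkn1a rose by 1.23. Of 15 p53 targets 6 rose and 2 fell, but only 2 rose without no-surgery library 2 and 3 without no-surgery library 1.

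Chaperones changed in both directions. Of 22 heat shock genes, 6 rose and 6 fell. Hspa1b, an inducible HSP70 with a near-identical copy in Hspa1a, went from 105, 81.4, 98.9 and 92.9 CPM to 221, 214, 207 and 159 CPM (log2 fold change 1.08 ± 0.12). Hspa8, the constitutive HSC70, went from 2211, 1582, 2190 and 1354 CPM to 769, 721, 855 and 754 CPM (log2 fold change -1.24 ± 0.14). Both genes had separate groups, in opposite order. The small chaperone Cryab rose by 0.96 and the mitochondrial chaperonin Hspd1 fell by 1.08.

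Antioxidant genes of the NRF2 list likewise divided, with 10 falls and 4 rises among 21 (median -0.32). Gclc, the rate-limiting enzyme of glutathione synthesis, rose from 250, 263, 233 and 224 CPM to 503, 841, 515 and 778 CPM (log2 fold change 1.44 ± 0.15). Sham libraries 2 and 4 were highest, and none overlapped the controls. The peroxide-removing enzymes Prdx1 and Cat fell by 1.36 and 1.01, mitochondrial superoxide dismutase Sod2 by 0.86 and haem oxygenase Hmox1 by 0.84. Nfe2l2, which encodes NRF2 itself, rose by 0.44, a call lost with library totals and without no-surgery library 3. Genes of the endoplasmic reticulum and integrated stress responses gave 13 falls and 2 rises among 26. Manf, a secreted chaperone-like factor, fell by 1.33 and asparagine synthetase Asns, an ATF4 target, rose by 1.02.

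Antigen presentation genes fell. Of 16 tested, 9 fell and 0 rose (median -0.81). Cd74, the MHC class II invariant chain, was at 104, 66.7, 101 and 69.4 CPM without surgery and at 29.8, 23.6, 18.0 and 28.4 CPM after it (log2 fold change -1.78 ± 0.18, adjusted p = 3.8e-06). The class II chain H2-Ab1 fell by 1.84 and beta-2-microglobulin B2m, part of class I, by 0.87. All sham values of these 3 genes were below the controls. Macrophage and monocyte markers gave 1 rise and 1 fall among 13 tested, against 20.8% of all genes tested called, both directions together. The CSF-1 receptor Csf1r rose by 0.58. The complement gene C1qc fell by 0.96, a call lost when any library other than sham 1 was left out. The median log2 fold change of these markers was -0.55, and 10 of the 13 lay lower and 3 higher, called or not. Their summed CPM was 117 to 135 without surgery and 141 to 166 after it. Csf1r made up most of that sum, with a mean of 78.0 CPM without surgery and 117 CPM after it.

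Defining transcripts of neutrophils and several cytokines were near the limit of detection. Neutrophil markers were nearly absent, with 1 of 10 tested and Mpo, Retnlg, Cxcr2 and Ngp at 0 in all 8 libraries. S100a8 had 10 counts in all controls and 51 in all sham libraries, and S100a9 had 6 and 54. Ly6g had 0 and 22, all 22 in 1 sham library. The tested marker, Csf3r, had 75 and 43 counts and was not called. Il6 had 1 count in controls and 0 in sham libraries, and Il1b had 16 and 64. The chemokine Ccl2 gave 1.16 with an approximate 95% interval of -1.05 to 3.36, so a change of either direction was not detectable at this depth. Of 16 cytokines and chemokines tested 0 rose and 2 fell, the latter count being 1 without any 1 of no-surgery libraries 1, 2 and 3 or sham libraries 2 and 3. Interferon-stimulated genes gave 1 rise, Ifit3 (0.52), and 4 falls, Gbp2 (1.30 lower on the log2 scale) among them, out of 33. The share called over all genes tested was 20.8%, both directions together.

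Matrix and vascular genes rose in part. Of 26 matrix and profibrotic genes 8 rose and 1 fell (median 0.48). Between 3 and 5 rose without any 1 of no-surgery libraries 1, 2 and 3 or sham libraries 1, 2 and 4. The count of rises was 4 with library totals and 11 with DESeq2. It was at most 10 with 1 library left out and at most 12 under the other alternatives. Col4a1, a basement membrane collagen, went from 158, 124, 152 and 132 CPM to 302, 246, 201 and 217 CPM (log2 fold change 0.77 ± 0.13). The lowest sham library stood above the highest control. The metalloproteinase inhibitor Timp3 fell by 1.24, and the fibrillar collagen Col1a1 was not called (0.48 ± 0.21). In the endothelial list 2 of 12 rose and 1 fell: Emcn (0.72) and the plasminogen activator Plat (1.27) rose, and Kdr, the VEGF receptor, fell by 0.62, a call lost without any of 4 libraries (no-surgery 3 or 4, sham 2 or 3). Without sham library 4, 4 of the list were called higher. The share called over all genes tested, both directions together, was 20.8% in the main fit. Decorin, Dcn, of fibroblasts, fell by 0.97.

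Genes of direct contact between cells gave 2 rises and 2 falls among 16 connexins, pannexins and nanotube genes. Over all genes tested, 20.8% were called, both directions together. Gja1 (connexin 43) was at 2.76, 2.83, 6.65 and 6.26 CPM in controls and 8.41, 4.70, 5.71 and 5.49 CPM after surgery. The groups overlapped and it was not called (0.39, approximate 95% interval -0.25 to 1.03). Gjb2 (connexin 26) fell from 49.8, 77.2, 53.1 and 59.4 CPM to 14.9, 14.1, 21.8 and 19.9 CPM (log2 fold change -1.76 ± 0.16), with every sham value below every control. Gja5 (connexin 40) rose by 0.75, a call lost with library totals, with no filter and without any of 5 libraries (no-surgery 1, 2 or 4, sham 1 or 4).

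Markers of neighbouring tissue varied between libraries. Adipocyte genes gave 7 falls and 0 rises among 10 (median -0.86), and their summed CPM was 614 to 1088 without surgery and 374 to 780 after it. Lep, leptin, fell by 3.52 from 2.18, 1.56, 4.14 and 3.95 CPM to 0.305, 0, 0.471 and 0.239 CPM, and the lipid droplet protein Plin1 fell by 1.13, whereas Adipoq (-0.88, adjusted p = 0.066) and Cfd (-0.42, adjusted p = 0.25) were not called. How much fat each kidney carried was not measured. Adrenal markers were high in no-surgery library 4 and sham library 1, with Chga at 158 and 219 CPM there, and gave 0 calls among 8. Hepatocyte markers gave 3 rises and 2 falls among 8, where 20.8% of all genes tested were called, both directions together. Their summed CPM was 245 to 277 without surgery and 97.4 to 131 after it. Alb rose by 1.04, from a mean of 3.62 CPM to 7.47 CPM. The list gave 0 rises without sham library 4 and 1 without no-surgery library 1 or 3.

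The effect of sham surgery was then set beside that of IRI at 24 h (4 libraries) against the unoperated Control group of that arm (4 libraries), each arm against its own controls in a single edgeR fit. Both groups were C57BL/6 wild-type kidney. The IRI 24 h and Control columns stand in different joined blocks of their table, and 157 gene names that the tables do not treat alike were left out. In that fit 58.1% of 18543 genes were called in IRI, and the difference between both effects was called for 8331 (44.9%). Of 3652 genes called after sham surgery and tested here, 2431 (66.6%) differed between sham and IRI, 2088 (57.2%) were called in the same direction in IRI and 796 (21.8%) in the opposite direction. The sign was shared for 68.3% of them and for 59.7% of all genes.

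Several genes that rose after sham surgery fell after IRI. Slc7a12 gave 4.99 ± 0.58 after sham surgery and -4.09 ± 0.70 after IRI, a difference of 9.08 ± 0.89 (adjusted p = 2.6e-08). Prss35 gave 2.58 and -3.90, a difference of 6.48 ± 0.61. Slc22a19 gave 0.96 and -4.54, a difference of 5.50 ± 0.19. All 3 rose after sham surgery and fell after IRI. Cyp4a14 (2.75 and -1.28) followed the same order, and Prlr (2.64 after sham surgery) was not called in IRI at -0.22 ± 0.26.

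In the other direction, Timd2 fell after sham surgery (-2.65) and rose after IRI (1.27), and so did leptin (-3.52 and 1.41), Rps2 (-0.77 and 1.51) and the ferritin heavy chain Fth1 (-1.58 and 0.55). Hmox1 gave -0.84 and 2.97, a difference of -3.81 ± 0.26. The clock repressors Per1 (-0.62 and 1.64), Per2 (-0.70 and 1.02), Bhlhe40 (-0.65 and 0.86) and Bhlhe41 (-1.54 and 0.95) fell after sham surgery and rose after IRI, and the difference was called for each. Hlf fell in both, by 1.59 and 3.49. Across whole lists, the 32 ribosomal genes had a median of -0.53 after sham surgery and 1.5 after IRI, and 32 of 32 differed. Proteasome medians were -0.55 and 0.44, and 25 of 28 differed.

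Some falls were of like size in both arms. Cyp4b1 gave -2.77 and -2.85, a difference of 0.09 ± 0.30 (adjusted p = 0.85). Slc22a6 gave -1.90 and -2.12 (difference 0.21 ± 0.30), Psmb7 -1.03 and -0.96 (difference -0.07 ± 0.18), and Cd74 -1.78 and -1.43 (difference -0.36 ± 0.24). A difference that misses the threshold does not show that the effects were equal. Injury and loop genes were far apart: Krt18 gave 0.69 after sham surgery and 4.0 after IRI, and Slc12a1 0.27 and -4.10. The injury list had medians of 0.27 and 3.51, and 18 of its 19 genes differed between the arms.

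**Figure D5:**
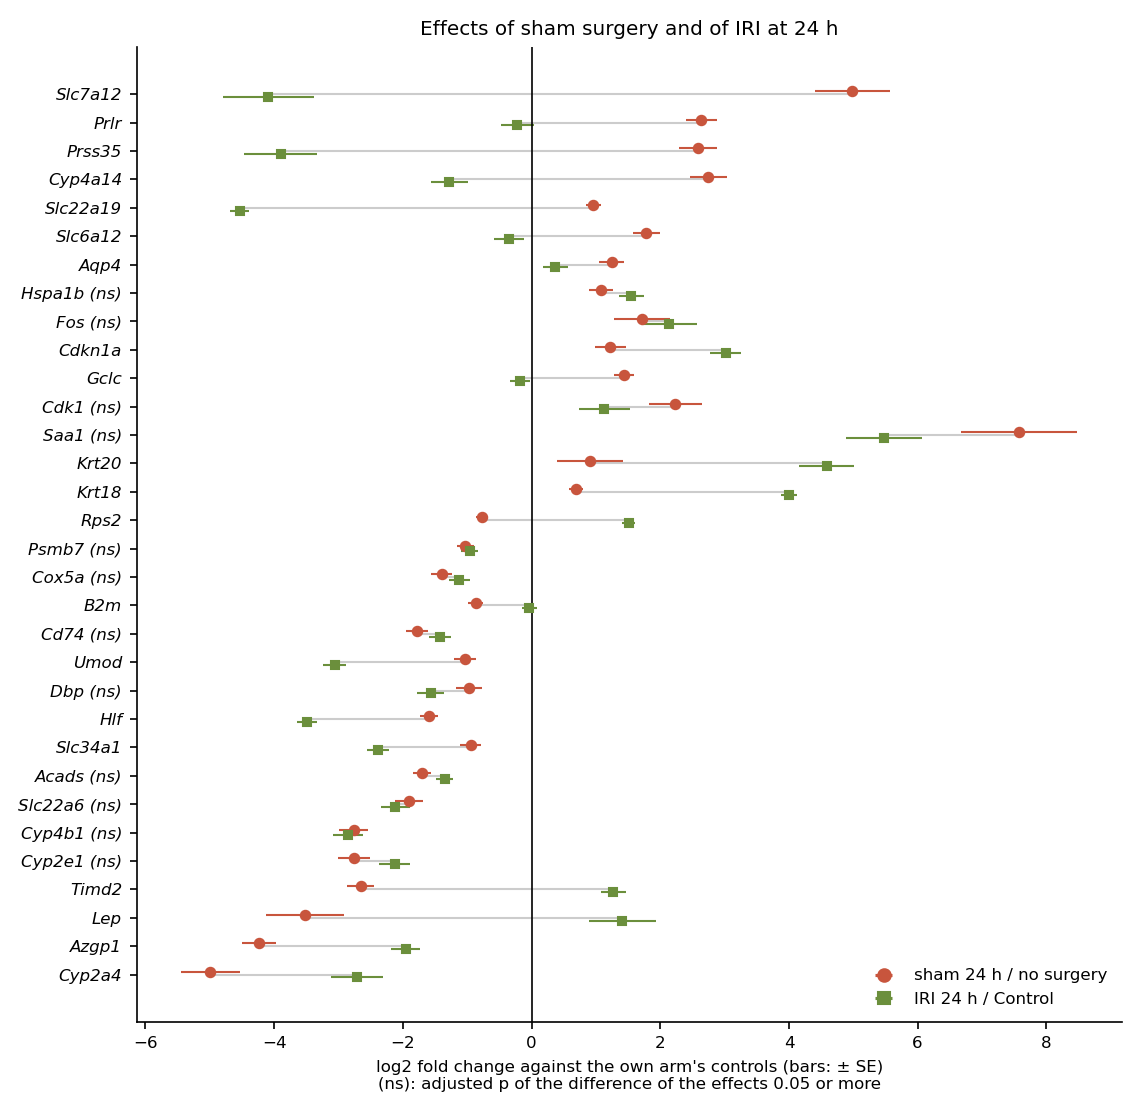
Log2 fold changes (bars: SE) of named genes after sham surgery (circles) and after IRI at 24 h (squares), each against its own arm's controls and joined by a line per gene, with ns where the difference had an adjusted p of 0.05 or more. Slc7a12, Prss35 and Slc22a19 lie right of 0 for sham surgery and left of it for IRI, whereas the symbols of Cyp4b1, Slc22a6 and Psmb7 differ by 0.21 or less.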

How the data were processed

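Per the submitters' processing notes, the authors made counts per gene with HTSeq on GRCm39 (mm39) and used DESeq2. The aligner and strand setting are not given in the sources used here. The deposited values are raw whole-number counts, 1 column per library, and 0 columns of per-sample values were left unused. The control columns name the group but could not be tied to single numbered samples, so library numbers follow the column names. The sham table holds 56748 rows and 55866 names; the 959 rows of 77 names held by several rows were summed.

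Genes with low counts were removed (filterByExpr), libraries scaled by TMM and groups compared with edgeR 4.0.16 (quasi-likelihood test, Benjamini-Hochberg adjustment, threshold 0.05) in R 4.3.3. The comparison with IRI was 1 fit over 4 groups, testing the difference of the effects. The procedure was tested on simulated data. Alternatives were DESeq2 1.42.0, DESeq2 size factors, library totals, no filter, names held by several rows left out, each library left out and, added after seeing the data, mitochondrially encoded names left out. Figures and lists used Python 3.11.15, pandas 2.3.3, numpy 2.4.6 and matplotlib 3.10.9. Lengths are from GENCODE M21.

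Members and gene lists were chosen with earlier results of these data known. Named genes were the 12 with the largest rise and the 12 with the largest fall among called genes of sufficient level and separate groups, fixed study and marker genes, and from each list up to 5 called and 2 not called. Kap, Cyp2j13, Slc22a19, Hsd11b1 and Gusb were added after their values were seen, as were genes named only to list a count. Some results that the rule would name are not reported here.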

Additional observations from a re-analysis of the deposited data

Results flagged for a closer look

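Single libraries stood apart from the other 3 of their group for 13 of 350 sets of 4 values that were looked at (3.71%); chance flags about 1 in 20 such groups. Adrenal transcripts gave 4 of them. Chga was 158 CPM in no-surgery library 4 (next 13.1) and 218.9 CPM in sham library 1 (next 16.7). Hsd3b1 was 91.63 CPM in no-surgery library 4 (next 7.30) and 55.51 CPM in sham library 1 (next 5.78).

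In sham library 4, Kl was high at 208.4 CPM (next 151) and Cyp4a12a at 5.769 CPM (next 2.80), while Tef was low at 363 CPM (next 394.9) and Cryab at 504 CPM (next 608.6). Ces1g was low in sham library 2 at 3.41 CPM (next 4.93), and Cry1 was high in sham library 3 at 5.654 CPM (next 2.44). In no-surgery library 2, Pink1 was high at 225.6 CPM (next 194) and Cat at 674 CPM (next 527.8). Saa2 was 0.1926 CPM in no-surgery library 4 and 0 in the other 3.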

How the results depend on the processing

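No paired analysis was possible because the control columns of the sham table could not be tied to single numbered samples; the planned fits with a replicate block were not run. The total of 3703 called genes was 4206 with DESeq2, 3762 with DESeq2 size factors, 3391 with library totals, 3795 with no filter and 3731 without mitochondrially encoded names, and ranged from 2748 to 3551 when 1 library was left out. The count of genes called higher ranged from 855 (without no-surgery library 2) to 1243 with 1 library left out and was 793 with library totals; the cause was not tested. The count called lower ranged from 1893 to 2333. The 8331 differences from IRI ranged from 7667 to 8418 with 1 library left out. None of the 172 named genes changed direction where called. Of the 129 called, 117 kept their call under all alternatives run; Gusb, Ciart, Kdr, Pck1, Pdk4, Tfam, Gja5, Saa2, Nfe2l2, C1qc, Alb and Fkbp5 lost it under at least 1. Of 43 not called, 16 were called under some alternative. With 4 libraries a group, the median SE of the log2 fold change was 0.14 among called genes alone. Estimates well above that SE went uncalled, such as Clock at 0.38 ± 0.14 and mt-Co2 at 0.44 ± 0.16. Changes of that size could therefore be missed. Havcr1, with 54 and 50 counts, had an interval of -2.27 to 2.29.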

Other observations

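Iron storage transcripts fell. Fth1, the ferritin heavy chain, stood at 2374, 3125, 2428 and 2764 CPM without surgery and at 760, 710, 1071 and 1034 CPM after it (log2 fold change -1.58 ± 0.14, adjusted p = 1.8e-06). Ftl1, the light chain, fell by 1.49. Both have processed copies in the genome, so their counts are uncertain. Among 21 genes of iron and haem handling 8 fell and 2 rose; the rising pair was Alas2 and Slc39a14, which carries zinc and iron into cells (0.83). Slc30a2, a vesicular zinc exporter, fell by 1.64 and the metallothionein Mt1 by 0.51. Arginine and polyamine genes gave 8 falls and 0 rises among 13. Ass1, which makes the arginine precursor in the proximal tubule, went from 1432, 2277, 1547 and 2028 CPM to 364, 374, 476 and 493 CPM (log2 fold change -2.09 ± 0.15), with all sham values far below the controls.

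Of 35 genes of salt and water handling, 9 rose and 4 fell, against 7.70% of all genes tested called higher and 13.1% called lower. The most abundant class of genes, which held 24 of the 35, had 12.6% called higher and 40.9% called lower. Sgk1, an aldosterone- and glucocorticoid-induced kinase, was at 160, 99.6, 152 and 118 CPM against 242, 258, 274 and 187 CPM (log2 fold change 0.86 ± 0.15). The groups did not overlap. Angiotensin-converting enzyme, Ace, fell by 1.04 and renin, Ren1, was not called (0.09, approximate 95% interval -0.18 to 0.37). Kl, the Klotho co-receptor for FGF23, fell from 228, 302, 242 and 269 CPM to 142, 141, 151 and 208 CPM (log2 fold change -0.70 ± 0.13), with sham library 4 closest to the controls. Egf was not called at -0.26 (-0.50 to -0.03, adjusted p = 0.13). In the cross-arm fit its log2 fold changes were -0.27 after sham surgery and -6.62 after IRI, a difference of 6.35 ± 0.19.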
